A study of Mus musculus with 6 samples.

Results

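A CpG dinucleotide reads as CpG on both DNA strands, so that each site carries 2 cytosines, 1 on the forward (F) strand and 1 on the reverse (R) strand 1 base further along. Maintenance methylation, in which Uhrf1 recognises the half-methylated sites left by replication and Dnmt1 methylates the new strand, keeps both cytosines alike at most sites of a dividing cell. Strand-discordant CpG pairs are the measured sites at which the 2 cytosines read differently in every library. A pair was eligible where both cytosines had a coverage of at least 20 reads in all 6 libraries. Discordant pairs were selected on the readout itself, where the percent of reads with C differed between F and R in the same direction in all 6, by a mean of at least 15 percentage points. The rule kept 4630 of 232442 eligible pairs, or 1.99%.

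The libraries are enhanced reduced representation bisulfite sequencing (ERRBS) of splenic naive B cells from C57BL/6 mice, 3 from Tet2 knockout mice (KO) and 3 from wild-type mice (WT). Tet2 is a dioxygenase that oxidises 5-methylcytosine, and the assay reads 5-methylcytosine and 5-hydroxymethylcytosine alike as C. The sources do not give how the knockout allele was made, in which cells it acts, or how old the mice were. The submitters' design line speaks of GC B cells, but the title and all sample labels speak of naive B cells, which is the name used here. The labels do not say that the libraries come from separate mice, so the p-values below measure the spread between these libraries, which may be partly technical.

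Between 1551481 and 1626375 cytosines were listed per library, at a median coverage of 92 to 110 reads. Windows of 1 kb around the ends of marker genes gave a mixed check of the cell type. The measured end was low at Pax5 (0.523% in KO and 0.201% in WT) and at Cd79b (1.86% in KO and 1.08% in WT), both B cell genes, and high at the T cell gene Lck (95.8% in KO and 94.9% in WT). It was also high at the B cell gene Blk (90.1% in KO and 87.0% in WT) and low at the T cell genes Cd4 (0.519% in KO and 0.547% in WT) and Tcf7 (4.16% in KO and 3.88% in WT). The gene table used for these windows has no strand, so the end measured may not be the promoter.

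ERRBS starts from DNA cut by MspI, an enzyme that recognises CCGG and cuts it whether or not the inner CpG is methylated. The short single-stranded ends that the enzyme leaves are filled in with new nucleotides before adapters are ligated, and short fragments can be read from end to end. These are properties of the assay, and their part in the results below was not tested.

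Sequence was at hand for the 43 discordant pairs inside RefSeq promoter windows (250 bases before to 50 after a gene's start, GRCm38.p6). Of these, 41 lay within CCGG (95.3%), against 8727 of 39785 other eligible pairs in the same windows (21.9%) and 170 of the 447 other pairs with a methylation level of 50% or more (38.0%). CCGG reads the same on both strands and was found in 17338 of 32851 promoter windows (52.8%). In 12 cases a stretch from 1 discordant pair to its partner lay inside 1 window, and 8 of these were upstream of the start site. The stretches below were chosen from the 8 for their wide gaps. They lie at chr3:102936147-102936198 before Sycp1, a protein of the meiotic synaptonemal complex whose gene is on the minus strand, at chr6:125049677-125049729 before Acrbp, a sperm acrosomal protein with its gene on the plus strand, and at chr11:3532663-3532714 before Gm11946, also on the plus strand. All are printed 5′ to 3′ on the plus strand of GRCm38.p6, with the CCGG at each end in capitals.
Sycp1: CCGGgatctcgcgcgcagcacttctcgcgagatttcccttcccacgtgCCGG
Acrbp: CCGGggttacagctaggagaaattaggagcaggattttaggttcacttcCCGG
Gm11946: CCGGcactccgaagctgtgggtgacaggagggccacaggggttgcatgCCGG

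In each stretch the F cytosine was the higher one at the left CCGG, and the R cytosine at the right CCGG. Upstream of Sycp1 the left pair averaged 99.3% on F and 1.35% on R over the 6 libraries, and the right pair, 48 bp further, 1.84% on F and 96.2% on R. In single libraries the left F cytosine read 95.8, 100 and 100% in KO and 100, 100 and 100% in WT. The left R cytosine read 0, 0 and 0% in KO and 0, 8.08 and 0% in WT. The right R cytosine read 91.8, 98.1 and 89.5% in KO and 99.1, 100 and 98.5% in WT, so the strands were far apart in every library of both genotypes.

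Upstream of Acrbp, where the pairs are 49 bp apart, the left F cytosine spread more, at 94.5, 48.8 and 89.4% in KO and 91.7, 52.3 and 77.6% in WT. Its R partner stayed between 0% and 5.63% in the 6 libraries. Upstream of Gm11946 the left pair averaged 97.7% on F and 1.16% on R, and the right pair 1.57% on F and 96.7% on R. Some of the other upstream stretches also had wide gaps at the left pair, which averaged 92.9% on F and 1.31% on R before Gm38948. Before Gm9257 it averaged 74.7% on F and 0.292% on R. The rest had smaller gaps. Before 4930467D21Rik the left pair averaged 96.0% on F and 50.1% on R and the right pair 61.5% on F and 99% on R. Before Gm40881 the left pair averaged 52.5% on F and 28.0% on R, and before Prom2 29.7% on F and 0% on R, with 17.9% on F and 36.7% on R at its right pair.

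Another pair of stretches, with CCGG at a wider spacing, is shown for comparison, upstream of Ddx4, a germ cell RNA helicase (chr13:112652350-112652405, gene on the minus strand), and of Hormad1, a meiotic chromosome protein (chr3:95559501-95559561, gene on the plus strand). They are printed in the same way.
Ddx4: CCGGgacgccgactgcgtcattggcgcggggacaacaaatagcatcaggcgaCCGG
Hormad1: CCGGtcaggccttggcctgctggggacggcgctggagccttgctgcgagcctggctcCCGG

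Neither stretch holds a discordant pair at its ends. At the Ddx4 stretch, with its CpGs 52 bp apart, the left pair averaged 92.3% on F and 93.5% on R and the right pair 89.3% on F and 93.7% on R. At the Hormad1 stretch, with a spacing of 57 bp, the left pair averaged 94.0% on F and 98.5% on R, and the right pair had F at 100, 100 and 100% in KO and 100, 99.1 and 100% in WT, with a mean of 97.8% on R. The 2 discordant pairs in a promoter window but outside CCGG had no measured CpG at the spacing described below. One of them lay upstream of Vmn2r29, a vomeronasal receptor gene, at chr7:7278451-7278482 (plus strand of GRCm38.p6, its CpG in capitals).
Vmn2r29: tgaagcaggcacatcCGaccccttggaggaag

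The Vmn2r29 pair was close to the threshold of the rule. Its F cytosine read 20.9, 35.4 and 22.4% in KO and 11.4, 20.2 and 24.5% in WT, against 0, 24.5 and 0% in KO and 0, 2.11 and 2.5% in WT on R. The other, in the window of Nrsn2 and not upstream of its start, had a wide gap of 70.4 points, with F at 100, 87 and 96% in KO and 100, 96.9 and 93.3% in WT. Its R read 34.6, 26.6 and 22.1% in KO and 30.6, 24.4 and 12.7% in WT.

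The strand gap ran from partial to complete. The median over the 4630 pairs of the mean gap was 86.5 points (quartiles 43.1 and 94.9), and 2039 pairs (44.0%) had a gap of 90 points or more. The higher strand had a median level of 95.6% and the lower strand one of 2.55%, and 2227 pairs had a higher strand of at least 90% with a lower strand under 10%. The lower strand was at 50% or more in 733 pairs, the higher strand was under 50% in 391, and the gap was 15 to 30 points in 609 and 30 to 50 points in 743. The choice of strand was balanced, with F higher in 2302 pairs and R higher in 2328. The pairs were chosen by these strand values, which are therefore a description. Among the 38601 other eligible pairs with a level of 50% or more, the median gap was 5.45 points.

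**Figure D1:**
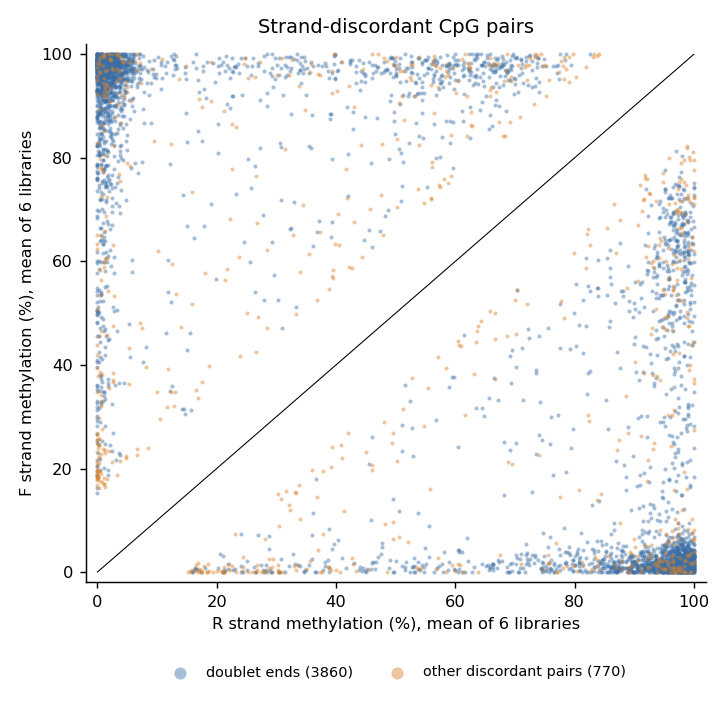
Methylation of the F strand (vertical axis, %) against the R strand (horizontal axis, %) of the 4630 discordant pairs, each value the mean of 6 libraries, with the diagonal of equal strands. Blue points are the 3860 doublet ends and orange points the other 770 pairs. The 2227 pairs with a higher strand of at least 90% and a lower strand under 10% crowd in 2 corners, and the others lie in bands along the edges and between.

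The gap was complete in every read at 12 pairs. One lies in the body of Irf4, a transcription factor of activated B cells and plasma cells (chr13:30757437-30757438), where F read 100% and R 0% in all 3 KO and all 3 WT libraries. R coverage there was 32 to 86 reads, and 0 reads with C allow a level of up to 3.49% in the deepest library and 9.38% in the shallowest (3 counts, counting error only). The others include pairs in or near Phf3, Rnf144b, Racgap1 and Apbb1ip with F at 100%, and Pex19, Slc4a5 and Bcat1 with R at 100%. At the other edge of the rule, the 3 pairs just inside were near Spata33 (15.08 points), Zfp316 (15.06) and Fbxl12 (15.04), and the 3 same-sign pairs just outside near Gm36722 (14.97), Spag8 (14.95) and Flg2 (14.9). At the coverage minimum 1 read is worth 5 points, so pairs this close to the threshold are placed by few reads.

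Discordant pairs came in couples. A left pair with F higher was followed by a right pair with R higher at 46 to 50 bp in 1930 cases, called doublets here, which hold 3860 of the 4630 pairs (83.4%). The spacing was 46 bp in 65 doublets, 47 bp in 376, 48 bp in 532, 49 bp in 467 and 50 bp in 490. No couple of the reverse order, R higher on the left and F higher on the right, was found at those spacings. At the other spacings between 30 and 69 bp there were 4 couples in all.

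The edge of this window was sharp. Among combinations of 2 eligible pairs whose outer cytosines (left F and right R) were both at 50% or more, 1788 of 3347 were doublets at 46 to 50 bp (53.4%), against 4 of 7490 at the other spacings (0.0534%). The share was 0% at 45 bp, 15.7% at 46 bp, 53.3% at 47 bp and 59.9% at 48 bp. The window was chosen after these counts were seen.

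**Figure D2:**
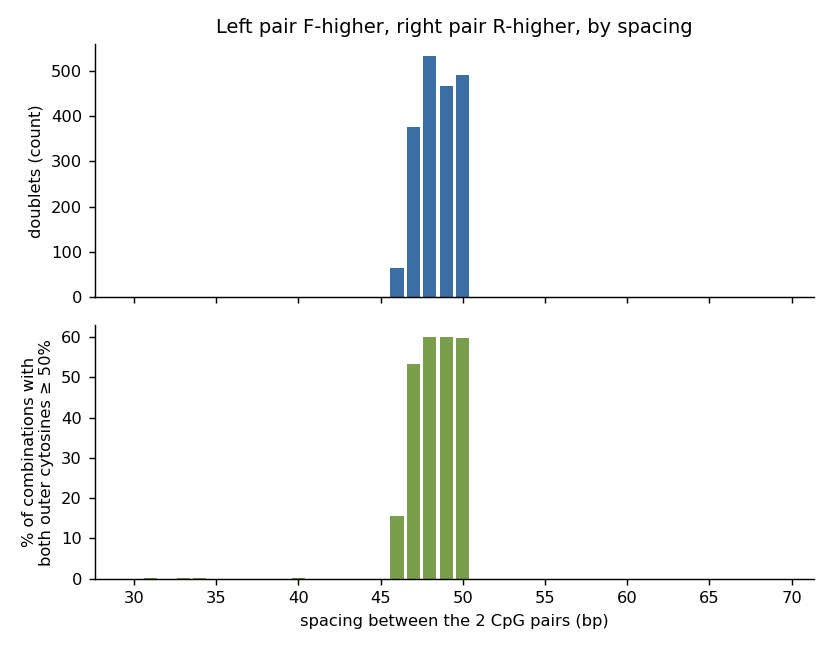
Number of doublets (upper panel) and their percent among combinations with both outer cytosines at 50% or more (lower panel), by the spacing of the 2 CpG pairs from 30 to 69 bp. The bars rise at 46 bp, stay high to 50 bp and are at or near 0 elsewhere.

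Spacing could also be read from the promoter sequences, with 46 bp apart from the rest of the window. Adjacent CCGG sites at 47 to 50 bp were eligible at both ends in 645 of 758 cases (85.1%), at 46 bp in 37 of 189 (19.6%), at 51 to 60 bp in 352 of 1710 (20.6%) and at 34 to 45 bp in 346 of 2782 (12.4%). Few of these promoter sites were methylated: 21 of the 645 had both outer cytosines at 15% or more, and 18 of them held a discordant pair. At 46 bp, 0 had both outer cytosines at 15% or more. At 34 to 45 bp, 2 did and both held a discordant pair, 1 of them upstream of Tmem267 with a spacing of 34 bp, 73.4% on the left F and 15.8% on the left R. At 51 to 60 bp, 10 did and 0 held one. At 51 to 60 bp the medians were 93.7% on the left F, 94.3% on the left R, 90.8% on the right F and 90.1% on the right R.

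CpGs lying between the 2 ends of a doublet were not discordant. Of 1997 eligible pairs inside 1136 doublets, 10 met the rule, and the median gap was 6.94 points. Their medians were 93.2% on F and 93.1% on R, and 83.9% lay within 10 points of the higher strand of the ends. By contrast 0.901% lay within 10 points of the lower strand. The profile was alike in both genotypes: at the left end F averaged 90.1% ± 0.189 and R 13.8% ± 1.12 in KO, and F 89.4% ± 0.377 and R 13.8% ± 1.18 in WT (SD, n = 3 libraries each).

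**Figure D3:**
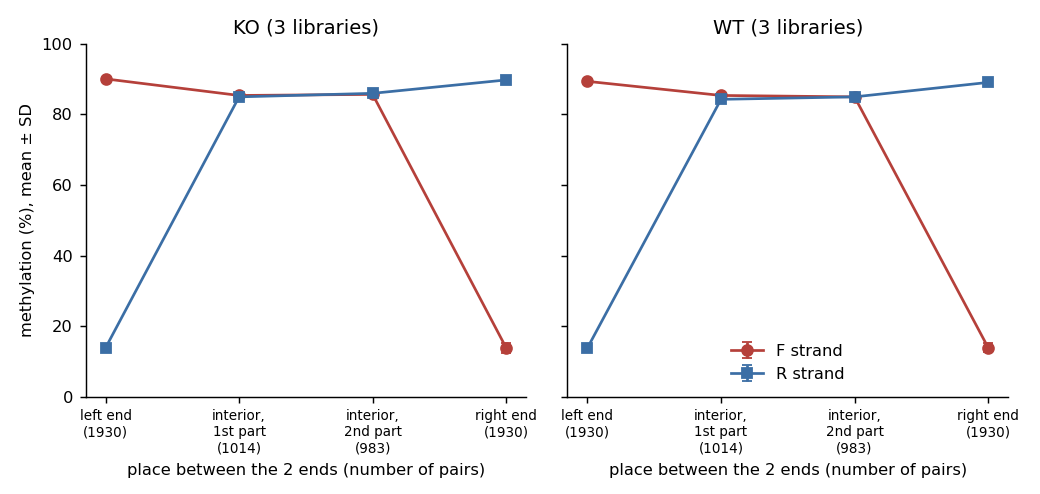
Mean methylation of the F strand (red circles) and the R strand (blue squares) at the left end, in the first and second part of the interior and at the right end of the 1930 doublets, in KO (left) and WT (right). Points are means of 3 libraries and error bars their SD, with the number of pairs under each place; the strands meet inside the doublet and part at its ends.

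The depth of the lower strand went with its level. At each doublet end, the coverage of the lower strand was divided by the coverage of the same strand at the other end. Where this ratio was under 1.1 (2868 ends), the median lower-strand level was 1.46%. It was 18.5% at ratios of 1.1 to 1.5 (202 ends), 45.8% at 1.5 to 2.5 (356 ends) and 64.0% at 2.5 or more (434 ends). Across the 3860 ends Spearman's rho was 0.771, a description, since each ratio uses the coverage at both ends of a doublet. The median level of the higher strand was 95.1% to 96.7% in the 4 classes. In the 1073 doublets with both lower strands under 10%, depth was compared between the 2 ends in each of the 6 libraries. It was the same to within 10% in 93.4% of these comparisons on F and in 94.0% on R.

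**Figure D4:**
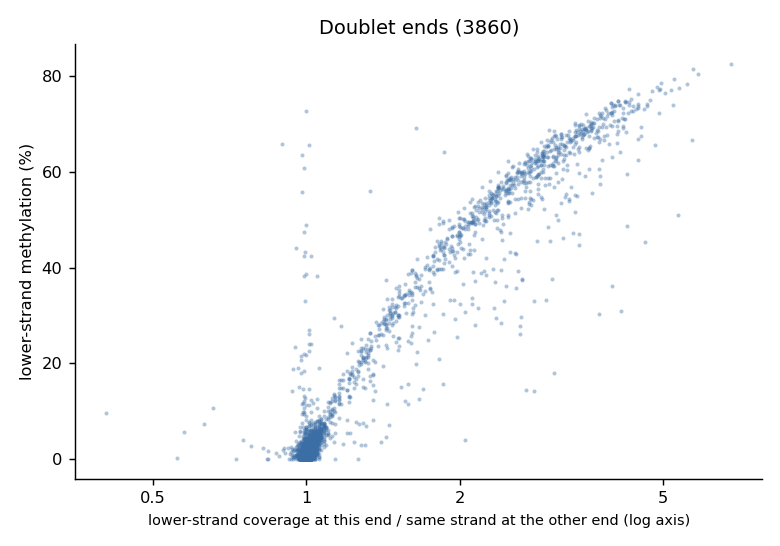
Lower-strand methylation (%) at each of the 3860 doublet ends against the coverage of that strand relative to the same strand at the other end (log axis). Points crowd at a ratio of 1 near 0% and then rise along 1 curve to above 60% at ratios over 2.5.

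There were 7 eligible pairs with a discordant pair 46 to 50 bp away on both sides, so that 2 such stretches met at them. Their medians were 46% on F and 46.3% on R, between neighbours at 97.3% (left neighbour, F) and 95.1% (right neighbour, R). Their coverage was 1.81 times that of the left neighbour on F and 1.88 times that of the right neighbour on R. None of the 7 met the rule. One lies near Snai1, a transcription factor of cell migration, where F read 50.7, 53.8 and 40.3% in KO and 31.1, 27.1 and 28.6% in WT, and R read 33.9, 50.9 and 42.3% in KO and 50.3, 54.8 and 45.7% in WT.

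The pairs outside doublets were of several kinds. A pair at the matching spacing was eligible but below the rule in 242 cases, under the coverage minimum in 308 and measured on 1 strand in 62. The remaining 158 had no measured CpG there. Doublet ends had a median gap of 89.9 points, with 96.1% on the higher and 2.30% on the lower strand. The 158 had a median gap of 23.0 points, with 82.4% on the higher and 44.5% on the lower strand. The 242 had one of 32.0 points, with 39.4% on the higher and 1.07% on the lower strand, the 308 one of 61.7 points and the 62 one of 41.3 points.

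With 1 strand often near 100% and the other near 0%, discordant pairs filled the middle of the methylation range when the strands were averaged. They made up 3416 of the 8639 eligible pairs with a level of 30 to 70% (39.5%), 384 of 6309 at 10 to 30%, 769 of 8097 at 70 to 90%, and 53 of 180704 under 10%. Of the 3416, the higher strand alone was at 90% or more in 2524 and between 30 and 70% in 224.

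In the genome the pairs lay where other methylated pairs lay. Within 1 kb of an end of a protein-coding gene there were 420 pairs (9.07%), in the interior of genes 2589 (55.9%) and outside genes 1621 (35.0%). The shares were 8.97%, 59.5% and 31.6% for the other pairs at 50% or more, and 58.6%, 30.4% and 10.9% for all eligible pairs. By chromosome, the share of eligible pairs that were discordant ran from 0.717% on X (19 pairs) to 2.62% on 17 among chromosomes with over 100 eligible pairs. The share of reads with a base other than C or T was 0.0998% at discordant pairs and 0.0201% at the other eligible pairs. Mean coverage of a strand reached 131802 reads among discordant pairs and 39188 among the others. The part of such deep pairs in this share was not tested.

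The pairs had 2196 different nearest protein-coding genes. Zfp64, a zinc finger gene, had the most with 16, all doublet ends. Esp38 followed with 15, of which 4 were doublet ends, then Irf8, a transcription factor of B cell and myeloid development, with 11, of which 10 were doublet ends, and Rpp21 with 11, of which 0 were. These 4 genes had the highest counts and were picked for them, and Rpp21 and Esp38 are the nearest genes of the longest runs. The nearest gene can be far away: some of these pairs lay 178 kb from Zfp64 and 103 kb from Irf8. A doublet outside Irf8 (chr8:120767834-120767835 and chr8:120767884-120767885) had its ends 11.1 and 11.2 kb from the gene. Its left F read 97.9, 94.7 and 100% in KO and 100, 100 and 98.7% in WT, and its left R 0, 0 and 2.5% in KO and 5, 0 and 0% in WT. The right pair was its mirror image, with R at 100, 100 and 89.7% in KO and 97.5, 100 and 100% in WT.

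Among 36 genes of B cell identity and function, 7 held 14 discordant pairs of 508 eligible ones (2.76%, against 1.99% in all). They were Irf4, Irf8, Syk, Tcf3, Prdm1, Plcg2 and Spib. The right end of the Irf4 doublet had its lower strand at an intermediate level, with F at 50.4, 59.4 and 71.7% in KO and 69.7, 79.0 and 55.7% in WT, and R at 100, 93.7 and 95.3% in KO and 87.5, 100 and 100% in WT. Syk, the tyrosine kinase next to the B cell receptor, had a left pair with F at 98.3, 100 and 100% in KO and 100, 98.1 and 100% in WT. Its R read 27.6, 47.6 and 30.6% in KO and 30.1, 6.25 and 51% in WT, a wide spread within each genotype.

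Of 19 genes of the DNA methylation machinery, 4 held 8 discordant pairs of 462 (1.73%), and each had 1 doublet: Dnmt1, the de novo methyltransferase Dnmt3b, Tet1 and Uhrf1. In Dnmt1 (chr9:20920706-20920707) the left F read 95.1, 94.4 and 97.8% in KO and 97.2, 98.9 and 100% in WT, and the left R 0, 0 and 0.775% in KO and 7.23, 0 and 0% in WT. In Tet1 the right R varied more, at 100, 57.8 and 92.5% in KO and 84.0, 91.2 and 85.4% in WT, with F at 0% in all 6. No pair in these genes was called between the genotypes.

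Imprinted genes, parts of which are methylated on 1 parental copy, held 17 discordant pairs of 436 (3.90%) in 8 of 28 genes. Another count took only pairs that were discordant or at 50% or more, which leaves out the other pairs under 50%. On this count the discordant share was 27.0% for imprinted genes (17 of 63) and 11.9% for B cell genes. It was 9.09% for the methylation machinery, 7.78% for Hox genes and 4.76% for clustered protocadherins, against 10.7% for all. The protocadherin share thus lies above that of all pairs on 1 count (3.03% of eligible pairs) and below it on the other. Inpp5f had a doublet with the left F at 100, 100 and 100% in KO and 100, 97.8 and 100% in WT. Peg12 had 2 doublets of smaller gaps, between 24.1 and 33.0 points in absolute value. The doublet ends in Kcnq1 had gaps between 25.2 and 96.5 points. The discordant pairs in Dlk1, Gnas, Grb10, Igf2r and Zrsr1 were not doublet ends, and their gaps were between 16.2 and 40.6 points in absolute value. Hox genes held 7 discordant pairs of 765 (0.915%) in 5 of 39 genes, the widest gap being 73.5 points in Hoxb3, and clustered protocadherins 2 of 66, a single doublet inside the overlapping Pcdhg genes.

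Most discordant pairs stood alone or in twos. Within 250 bp of each other they formed 2623 runs, of which 674 held 1 pair and 1922 held 2. The longest held 11 pairs in 166 bp on chromosome 17 (chr17:36231318-36231483), 24.4 kb from Rpp21, all with R higher. R coverage there averaged 780 to 11296 reads against 79.2 to 172 on F. Over all discordant pairs the medians were 60.2 reads on the higher and 67.7 on the lower strand. The next held 7 pairs (chr17:39844614-39845046), with mean coverage of up to 27666 reads on 1 strand. Another held 5 pairs in Gm5953 on chromosome 12.

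The comparison of KO with WT asks whether loss of Tet2 changed these sites. Over the 4630 pairs the mean gap was 72.2, 70.1 and 72.3 points in the KO libraries and 69.03, 72.1 and 71.0 points in the WT libraries, or 71.5 ± 1.25 in KO and 70.7 ± 1.56 in WT (SD, n = 3 each), which overlap. The higher strand averaged 87.4% ± 0.263 in KO and 86.5% ± 0.322 in WT, and the lower strand 15.8% ± 1.33 in KO and 15.8% ± 1.25 in WT. The higher-strand means did not overlap, with KO higher by 0.887 points. At other sites the difference went the same way and was smaller. Among the 28685 other pairs at 90% or more the mean was 95.5% ± 0.183 in KO and 95.1% ± 0.0153 in WT, 0.443 points higher in KO. These other pairs were chosen for a high level, so the sets are not alike.

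At the 2868 doublet ends with a coverage ratio under 1.1, the lower strand averaged 1.83, 2.42 and 1.75% in KO and 3.53, 2.29 and 2.06% in WT. The lower strand had no read with C in 75.8, 70.2 and 72.4% of those ends in KO and in 55.8, 53.1 and 64.8% in WT, which do not overlap. Pairs under 10% elsewhere had a mean in the other direction, at 0.863% ± 0.0461 in KO and 0.796% ± 0.00982 in WT. By count, other single strands under 10% were more often lower in KO, with 97289 higher and 106318 lower. Their share with no read with C was not compared. Median coverage was 92 to 106 reads in the KO libraries and 99 to 110 in the WT libraries. Its part in the share of doublet ends with no read with C was not tested.

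Of the discordant pairs, 2 were called between KO and WT in pair methylation, with the reads of both strands summed, by a quasi-binomial test with limma-moderated overdispersion (adjusted p under 0.05 and at least 10 points). That is 0.0432% of the 4630, against 57 of 232442 eligible pairs (0.0245%). Both were higher in KO, as were 56 of the 57 (0.0241% of eligible pairs, with 0.00043% lower). The Yeats4 pair described below, 1 of the 2, met the rule through its KO libraries. On the higher strand alone 1 of 4630 was called and on the lower strand 0, against 13 of 464884 single strands (0.0028%), of which 0.00258% were higher and 0.000215% lower in KO. At an unadjusted p under 0.05 the lower strand had 71 pairs higher and 52 lower in KO. The strand gap had 0 called by limma among the discordant pairs and 0% of all eligible pairs, with 218 wider and 94 narrower in KO at an unadjusted p under 0.05. By limma on log2((C + 2)/(T + 2)), the lower strand and the gap also had 0 called.

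The first called pair lies in Yeats4, which encodes a reader of acetylated histones, within 1 kb of an end of the gene (chr10:117215565-117215566). R read 48.9, 60.4 and 61.2% in KO and 6.98, 12.7 and 12.7% in WT, and F read 29.9, 33.9 and 24.1% in KO and 2.86, 6.79 and 3.27% in WT. All 3 KO libraries were above all 3 WT libraries on both strands. With the strands summed the level was 43.4% in KO and 7.02% in WT, higher by 36.3 points (limma-moderated quasi-binomial test, adjusted p = 1.64e-06), and on the R strand 46.2 points (adjusted p = 0.00725). The gap was 27.5 ± 9.04 points in KO and 6.50 ± 2.72 in WT, wider by 21.0 points in KO, which did not pass (limma, adjusted p = 0.835). This pair belongs to the 158 with no CpG at the doublet spacing. Another pair of the same stretch, at chr10:117215608 and not discordant, was also higher in KO, by 34.6 points (adjusted p = 1.15e-05).

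The second lies in Rai1, a nuclear protein gene (chr11:60189363-60189364), and is the right end of a doublet. R read 83.6, 74.4 and 74.6% in KO and 23.8, 48.5 and 49.0% in WT, and F read 37.7, 46.8 and 55.9% in KO and 18.5, 24.9 and 30.9% in WT. The groups did not overlap on either strand. Summed, the level was 54.9% in KO and 27.7% in WT, higher by 27.2 points (limma-moderated quasi-binomial test, adjusted p = 0.00142). Its left partner had F at 96.2, 90.9 and 94.4% in KO and 72.7, 79.5 and 79.3% in WT, 17 points higher in KO (adjusted p = 1.0).

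Both calls depend on the test used. Without moderation the adjusted p was 0.862 at each pair, and with limma on log2((C + 2)/(T + 2)) it was 0.532 at Yeats4 and 0.646 at Rai1. Weighting each strand equally gave 35.5 points at Yeats4 (limma, adjusted p = 0.173) and 29.6 points at Rai1 (0.842), the Rai1 call was lost without KO library 3 (adjusted p = 0.193). The R strand call at Yeats4 was lost without KO library 2 (0.0615), KO library 3 (0.0622) or WT library 2 (0.053).

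**Figure D5:**
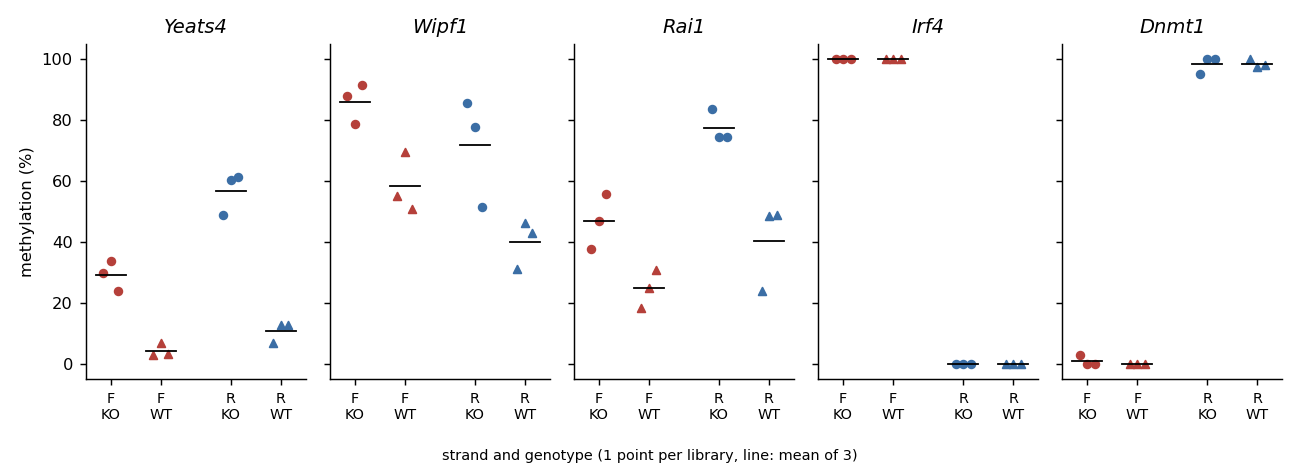
Methylation (%) of the F strand (red) and the R strand (blue) in each KO library (circles) and each WT library (triangles) at 1 discordant pair in each of Yeats4, Wipf1, Rai1, Irf4 and Dnmt1, with the mean of 3 as a line. KO lies above WT on both strands at Yeats4 and Rai1, and also at Wipf1, which was not called. At Irf4 and Dnmt1 the strands are apart and the genotypes together.

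A discordant pair in Wipf1, which encodes a partner of the Wiskott-Aldrich protein (chr2:73454868-73454869), had a large difference that did not pass. F read 87.8, 78.8 and 91.4% in KO and 55.1, 69.6 and 50.8% in WT, and R 85.7, 77.8 and 51.6% in KO and 31.1, 46.2 and 42.9% in WT. The difference of the summed reads was 30.9 points (limma-moderated quasi-binomial test, adjusted p = 0.478). In H2-Oa, a chain of the class II chaperone of B cells, the discordant pair differed by 11.3 points (adjusted p = 1.0). Both were chosen with earlier results of these data known.

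The smallest p-values of the gap belonged to small shifts. In Dennd4b the gap was 100 points in KO and 96.2 in WT, 3.81 points wider (limma, adjusted p = 0.483), and in Tmem109 100 points in KO and 94.3 in WT, 5.71 wider (0.547). Near Npr3 it was 79.1 points in KO and 92.4 in WT, 13.3 points narrower (the difference is -13.3, adjusted p = 0.591), with F at 77.6, 80 and 79.6% in KO and 92.5, 91.0 and 98.3% in WT.

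Whatever their p, 2460 discordant pairs were higher and 2169 lower in KO in pair methylation, and 2538 higher and 1926 lower on the higher strand. On the lower strand the order was the other way, with 1881 higher and 2296 lower, as it was at other single strands under 10%, with 97289 higher and 106318 lower. Among pairs with an unadjusted p below 0.05, pair methylation was higher in KO at 116 discordant pairs (2.51%) and lower at 54 (1.17%), against 1.91% and 0.823% of all eligible pairs. Most eligible pairs (180704 of 232442) had a level under 10%, whereas 73.8% of the discordant pairs had one of 30 to 70%. For the other pairs at 30 to 70% the shares were 10.1% higher and 2.24% lower. On the higher strand 125 were higher (2.70%) and 46 lower (0.994%), beside 3.04% and 1.26% of 56491 other single strands at 90% or more, and 1.34% and 0.629% of all single strands. On the lower strand the 71 and 52 are 1.53% and 1.12%, beside 0.669% and 0.392% of 361022 other single strands under 10%. The gap was wider at 4.71% and narrower at 2.03% of discordant pairs, against 1.29% and 1.08% of all eligible pairs. These sets are not alike, since the rule selected on the gap and the median gap of the other eligible pairs was 0.734 points. Pairs of like gap were not compared. Other pairs at a level of 30 to 70% had 34 of 5223 called, all higher in KO (0.651%), and a median difference of 1.91 points, against 0.408 points at the discordant pairs.

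Summing the strands can move a discordant pair without a change on either strand, since the sum then follows the ratio of F to R reads. With summed reads, 685 discordant pairs (14.8%) differed by 10 points or more between KO and WT, and with both strands weighted equally 111 (2.4%) did. Only 76 did so by both measures with the same sign. Among the 5223 other pairs at 30 to 70%, the counts were 951 with summed reads and 1013 with equal weights.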

How the data were processed

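Per the labels, ERRBS was made from DNA of splenic naive B cells. Per the submitters' processing notes, reads were processed with Bismark on GRCm38; for its version and for trimming, read length and duplicates the sources used here give nothing. Each deposited table lists, per the file headers, CpG cytosines by strand with a read count as coverage (at least 10 in every table) and the percent of reads with C and with T, neither normalized further by the authors. Multiplying percent by coverage gave whole C and T read counts for 100% of values. No molecular identifiers were used, so limits from counts cover counting error only.

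KO and WT were compared over all 232442 eligible pairs (464884 single strands) with a quasi-binomial F test on C and T counts, 1 level per genotype. Overdispersion was moderated by limma's squeezeVar (limma 3.58.1, R 4.3.3) and held at 1 or above, with Benjamini-Hochberg adjustment. The gap was tested with limma on F minus R per library, its sign turned so that positive means wider in KO. Calls needed an adjusted p under 0.05 and 10 points. When tested on simulated data, a first version whose moderation took in pairs at 0 or 100% in every library recovered almost none of the planted changes. It had called 0 discordant pairs. The prior is now estimated on the 48258 pairs with at least 5 expected C and T reads in every library (87.3 prior degrees of freedom); this change was made after the first results were seen and was judged on simulated data alone.

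Named pairs are the 10 of widest gap and the 5 widest with each strand higher, those called (or, with none, the 3 of smallest p), 3 on each side of the threshold, the 3 longest runs and up to 4 per gene list; further pairs in the text were picked once values were known. The members and gene lists were chosen with earlier results of these data known. Genes and promoter sequences came from RefSeq tables of GRCm38.p6; no genome sequence was used, so the CCGG context of the other pairs was not analysed here. Alternatives covered coverage limits, the rule's threshold, moderation, the scale, strand weights, the replicate block and leaving out each library.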

Additional observations from a re-analysis of the deposited data

How the results depend on the processing

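The number of discordant pairs was 547 at a coverage minimum of 50 (of 144796 pairs, mean gap 53.7 points, against 71.1 points at 20), a larger fall than that of the pairs tested. Discordant pairs were shallower, with median coverage of 63.25 reads on F and 63.5 on R, against 114.7 and 115 at the other eligible pairs. The cause of the fall was not tested. The number of discordant pairs stayed within 1.5 times of 4630 otherwise: 6911 at a minimum of 10, 5022 and 4426 at thresholds of 10 and 20 points, 4613 without the deepest pairs, 4174 with Fisher's exact test in each library, and 4692 to 4743 without 1 library, with mean gaps of 69.8 to 70.3 points.

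Few pairs were called between KO and WT under any setting. In pair methylation, 2 were called in the main test, 1 at a coverage minimum of 50, 4 without the deepest pairs and 2 to 7 without 1 library (7 without KO library 1, 5 without WT library 3). The additions to Yeats4 and Rai1 were mainly pairs of the run near Rpp21. With no moderation, with limma on log2((C + 2)/(T + 2)), with strands weighted equally and with the moderation estimated over all pairs (added after the data were seen), 0 were called, with 188, 148, 223 and 248 at an unadjusted p under 0.05. On the higher strand 1 was called, 2 without the deepest pairs, 0 to 3 without 1 library (0 without KO library 2 or 3, 3 without WT library 3), and 0 with no moderation, on the log2 scale or with the moderation over all pairs. On the lower strand 0 were called, 1 without the deepest pairs (Rai1) and 0 to 3 without 1 library (3 without KO library 1). The gap had 0 calls, and 0 to 4 without 1 library, each without a WT library (2 without library 1, 4 without library 2, 1 without library 3). Autosomes alone changed no call. The cause of these changes was not tested.

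With the replicate number as a block, 2 pairs were called in pair methylation, 2 on the higher strand, 0 on the lower strand and 0 in the gap. The labels do not say whether the numbers pair the samples. Deviations of same-numbered libraries correlated at 0.0314, -0.00322 and 0.00111 over 23106 pairs, which with 3 libraries per genotype cannot exclude a pairing. Not every library correlated best with its own number.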
